A study of Homo sapiens with 6 samples.

Results

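Ubiquitin ligases are the enzymes that choose which protein receives ubiquitin, and the genes described here belong to 9 symbol families of ligases and of the substrate receptors that work inside them. They are the entries of the deposited table with an Ensembl gene ID and a symbol that starts with RNF, TRIM, FBXO, FBXL, FBXW, KLHL, KBTBD, KCTD or ASB followed by a digit, which gives 49 genes of 2681 entries. There are 12 TRIM genes, 7 each of RNF, FBXO and KLHL, 6 of KCTD, 5 of FBXL, 3 of KBTBD and 1 each of FBXW and ASB. RNA was sequenced from Hep3B, an established human hepatocellular carcinoma line, that had spent 24 hours in 1 of 2 atmospheres, with 3 libraries for normoxia (20% oxygen) and 3 for hypoxia (1% oxygen). All 6 libraries carry the genotype WT. The labels also give each of them "genetic modification" as treatment and mention subclones in the RNA extraction, without naming a modification or a clone. The question is which transcripts change when these cells are short of oxygen.

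Ubiquitin passes from an activating enzyme (E1) to a conjugating enzyme (E2) and then, with the help of a ligase (E3), to the substrate, which is often sent to the proteasome. RNF and TRIM proteins usually carry their own RING finger, the domain that binds the charged E2. F-box proteins (FBXO, FBXL, FBXW) are substrate receptors of cullin 1 ligases and bind through SKP1, many proteins with a BTB domain (KLHL, KBTBD and part of KCTD) are receptors of cullin 3 ligases, and ASB proteins are receptors of cullin 5 ligases. The oxygen response itself runs through a related machine, since at high oxygen the cullin 2 receptor VHL marks the hypoxia-inducible factors for destruction.

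The table holds only entries that the authors called changed: in the authors' deposited table no false discovery rate exceeds 0.00999 and no log2 fold change is smaller in size than 1.00. A family gene without an entry is not analysed here. GENCODE 29 has 312 protein-coding genes with these symbols, and 15.7% of them have an entry, against 12.5% of all protein-coding genes. The share was 30% for KBTBD, 29.4% for FBXL, 28.6% for KCTD, 19.4% for FBXO, 18.9% for KLHL, 15.4% for TRIM, 11.1% for FBXW, 8.14% for RNF and 5.56% for ASB. How many of the other genes were expressed cannot be read from the table, so these shares describe the list and are not compared further.

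Of 13 genes of the oxygen response, 11 had an entry and all 11 were higher at 1% oxygen (median log2 fold change 3.28). The hepatocyte genes AFP and ALB were present at low levels, between 2.76 and 4.33 and between 3.97 and 6.14 FPKM (fragments scaled by transcript length and by library size) in the normoxia libraries, while APOA1, TTR and SERPINA1 had no entry. Since only changed entries are listed, a marker without an entry may be absent or expressed and unchanged. Of the 5 hepatocyte markers with an entry, of 8, AFP, ALB, APOB and FGB fell and TF rose at 1% oxygen, and their summed FPKM went from between 10.6 and 12.1 to between 3.02 and 3.77. Of the markers of other cell types, 3 of 5 for cholangiocytes, 1 of 4 for endothelium, 1 of 4 for leukocytes and 0 of 4 for fibroblasts had an entry, and each of these 5 entries was higher at 1% oxygen. The summed FPKM of the cholangiocyte entries KRT19, KRT7 and SOX9 went from between 21.8 and 34.0 to between 70.4 and 106, that of the endothelial gene CDH5 from between 0.121 and 0.419 to between 1.47 and 1.63, and that of CD68 from between 36.0 and 38.8 to between 114 and 127. The part of these marker changes in the results below was not tested. In these bulk libraries a change of RNA per cell and a change in the share of cells that express a gene cannot be told apart.

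The 49 genes split into 20 that rose and 29 that fell at 1% oxygen. All 49 passed the edgeR quasi-likelihood test at an adjusted p of 0.05, with adjusted p between 6.39e-06 and 0.0106, but so did all 2675 entries tested (100%), since each had been selected as changed on these same 6 libraries. The counts of calls therefore describe the list and do not support it. Among all entries 56.7% were called higher and 43.3% lower, while 40.8% of the family genes were higher and 59.2% lower. With median-ratio size factors the split over all entries was 997 higher and 1157 lower, and over the family genes 13 higher and 29 lower. The median log2 fold change was -1.08 over the family genes and 1.11 over all entries, and the median of its absolute size was 1.49 and 1.48. A log2 fold change above 2 was reached by 6 family genes (12.2%, against 18.5% of all entries) and one below -2 by 3 (6.12%, against 6.17%).

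Rises and falls were counted by family. Of the 12 TRIM genes 2 rose and 10 fell (median -1.22), of the 7 KLHL genes 2 rose and 5 fell (median -1.17), and of the 7 RNF genes 5 rose and 2 fell (median 1.09). All 5 RNF rises kept their direction with median-ratio size factors, but 3 of the 5 were then not called. Of the F-box genes 7 of 13 were higher and 6 lower, and of the KCTD genes 3 were higher and 3 lower. With median-ratio size factors FBXL20, FBXO46, KCTD7 and KCTD9 also lost their call as higher, and no fall lost its call. The families are small, no family was compared with another by a test, and the share of all entries called higher stands at 56.7%.

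**Figure D1:**
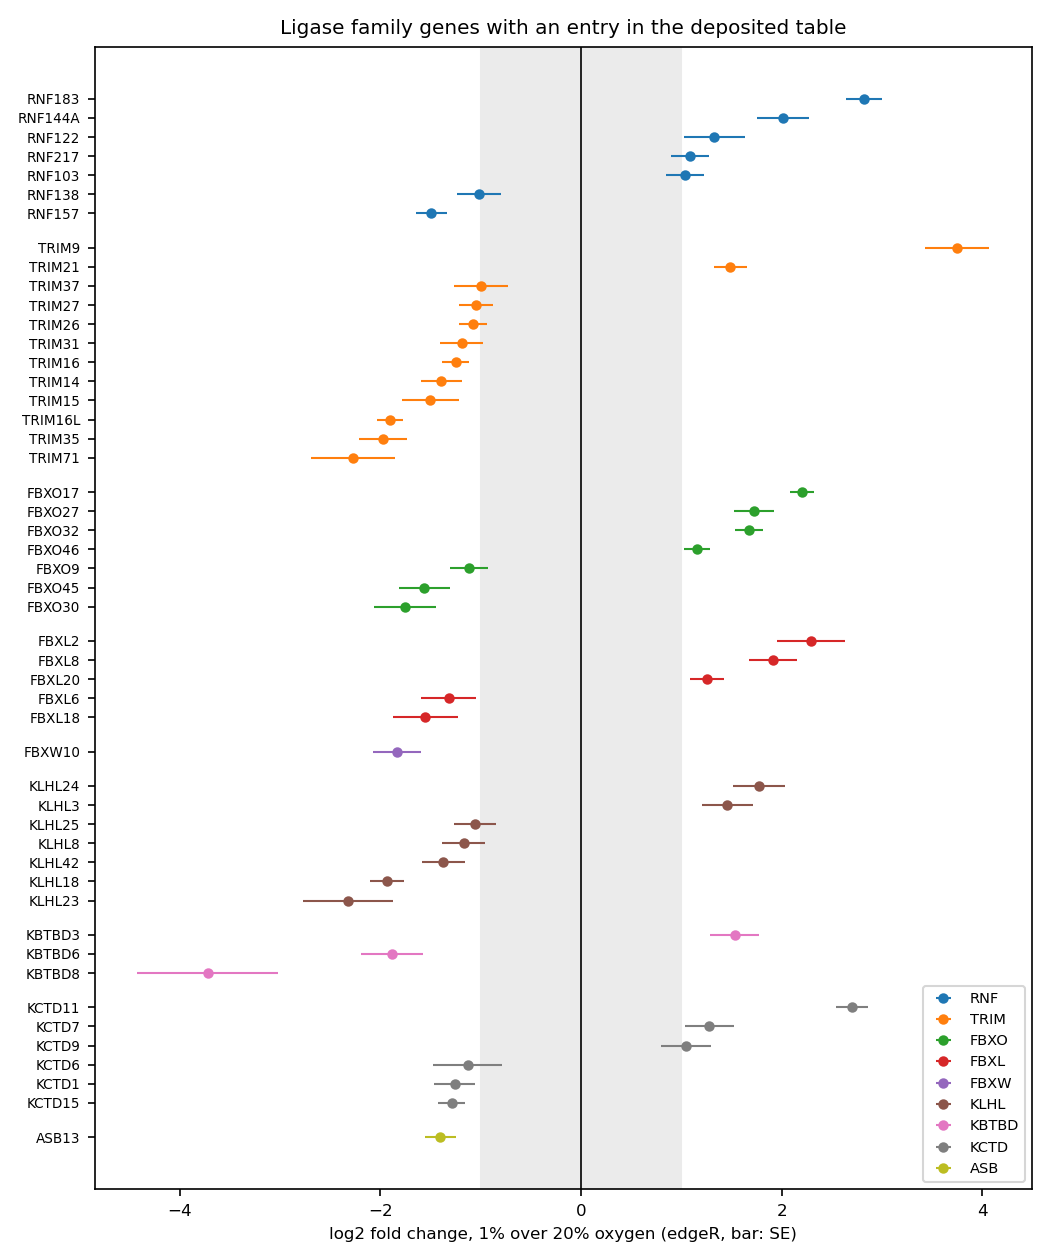
Log2 fold change of the 49 ligase family genes, 1% over 20% oxygen, with its standard error as a bar, grouped and coloured by symbol family; the grey band covers the changes between -1 and 1 that the deposited table leaves out. TRIM9 at 3.75 and KBTBD8 at -3.72 are the ends of the range, and 10 of 12 TRIM genes lie on the left.

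Levels below are normalized counts, the deposited read counts divided by a scale for each library, and are given for replicates 1, 2 and 3 in that order. The log2 fold changes and their standard errors (SE) are from the edgeR fit. FPKM values are those of the authors and serve to compare levels between genes, since they are divided by transcript length.

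Among the RING ligases of the RNF family, RNF183, a RING ligase anchored in membranes, rose the most. It had 100, 105 and 128 normalized counts in normoxia and 763, 835 and 763 in hypoxia, a 7.09-fold rise (log2 fold change 2.82, SE 0.18, adjusted p = 1.14e-05). The hypoxia libraries lay close together and far above those at normoxia, which they did not overlap. RNF144A, a ligase of the RING-between-RING type that passes ubiquitin through its own cysteine, had 230, 209 and 330 normalized counts in normoxia and 1197, 755 and 1141 in hypoxia, 4.02-fold higher (log2 fold change 2.01, SE 0.26, adjusted p = 0.000188). Its hypoxia replicate 2 stood below the other two and still above every normoxia library. RNF217, another ligase with the in-between RING domain, rose 2.13-fold and the membrane ligases RNF122 and RNF103 rose 2.52-fold and 2.06-fold; RNF217 and RNF103 lie outside the rule for named genes. These 3 genes lost their call in edgeR with median-ratio size factors, where their log2 fold changes were 0.30, 0.55 and 0.25 (adjusted p = 0.235, 0.133 and 0.279; smallest over the alternatives 1.08e-06, 6.81e-05 and 3.34e-06). RNF103 overlaps the annotated readthrough gene RNF103-CHMP3 over 6.69% of its exonic bases.

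The pair of RNF genes that fell was RNF157 and RNF138. RNF157, a ligase known from neurons, went from 1536, 1341 and 1486 to 474, 572 and 509 normalized counts and fell by 1.49 on the log2 scale (SE 0.15, adjusted p = 6.19e-05). RNF138, which acts at DNA double-strand breaks, had 731, 975 and 1059 normalized counts in normoxia and 503, 345 and 520 in hypoxia and fell by 1.02 (SE 0.22). Its groups did not overlap, but each held a low library, normoxia replicate 1 and hypoxia replicate 2.

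TRIM9, a ligase enriched in neurons where it acts in axon guidance and branching, had the largest rise of all family genes. It went from 19.9, 24.5 and 20.8 to 358, 198 and 324 normalized counts, 13.5-fold (log2 fold change 3.75, SE 0.32, adjusted p = 3.33e-05). The level stayed low for its length, at between 0.877 and 1.94 FPKM in hypoxia. TRIM21, a cytosolic receptor for antibodies that carries a RING finger, was the other TRIM gene that rose, from 400, 414 and 411 to 1134, 1325 and 974 normalized counts, 2.80-fold (log2 fold change 1.49, SE 0.16).

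Of the TRIM genes that fell, TRIM71, TRIM35 and TRIM16L changed most. TRIM71, the stem cell factor also called LIN41 that represses messenger RNAs, had 228, 269 and 394 normalized counts in normoxia and 51.3, 33.2 and 99.3 in hypoxia and fell by 2.27 on the log2 scale (SE 0.42, adjusted p = 0.0011). The libraries of each group were spread widely around their means of 297 and 61.3, and the groups did not overlap. TRIM35, which has been described as a partner of the pyruvate kinase PKM2, went from 625, 583 and 672 to 209, 149 and 121 normalized counts and fell by 1.97 (SE 0.24, adjusted p = 0.00014).

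TRIM16L and TRIM16 had the highest levels per length among all 49 genes. TRIM16, a regulator of the antioxidant factor NRF2 that lacks a RING finger, had 84.8, 81.9 and 89.9 FPKM in normoxia and 30.9, 30.1 and 29.4 in hypoxia. Its shorter relative TRIM16L went from 109, 114 and 111 to 26.3, 24.0 and 23.9 FPKM. Within each group the libraries were nearly level, and both genes were lower in every hypoxia library than in any normoxia library. TRIM16 fell by 1.25 on the log2 scale (SE 0.13, adjusted p = 8.39e-05) and TRIM16L by 1.90 (SE 0.13, adjusted p = 1.41e-05). These copies share sequence: 67.5% of the 31-base words of the longest TRIM16 transcript and 62.2% of those of TRIM16L occur in transcripts of other genes, mostly each other, so how their reads were divided is uncertain. The summed FPKM of the 12 TRIM genes went from between 312 and 320 in normoxia to between 111 and 116 in hypoxia. This pair made up most of it in each normoxia library, and the other 10 TRIM genes together made up slightly more than the pair in each hypoxia library.

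The other TRIM genes that fell, named here after their values were seen, were TRIM15 (by 1.50 on the log2 scale, SE 0.28), TRIM14 (1.39, SE 0.20), TRIM31 (1.19, SE 0.21), TRIM26 (1.08, SE 0.14), TRIM27 (1.05, SE 0.17) and TRIM37 (1.00, SE 0.27). TRIM14, an adaptor in antiviral signalling, also lacks a RING finger, and TRIM37 is a ligase of centriole control. TRIM31, TRIM15 and TRIM26 are neighbours on chromosome 6 in GENCODE 29 (GRCh38), where TRIM31 spans 30102897 to 30113106, TRIM15 30163206 to 30172696 and TRIM26 30184455 to 30213427, and TRIM27 lies on the same chromosome at 28903002 to 28923989. All 4 of these genes were lower at 1% oxygen.

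**Figure D2:**
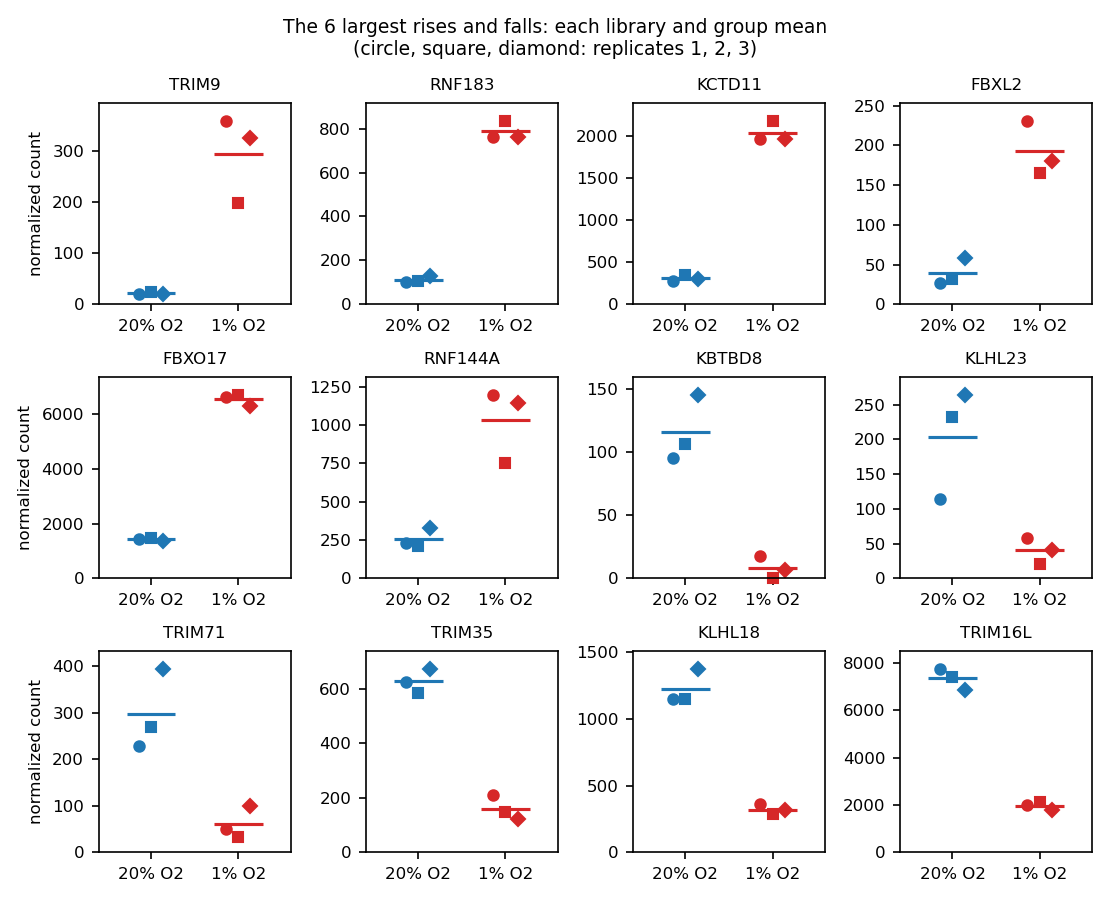
Normalized counts of the 6 largest rises and the 6 largest falls among the ligase family genes in each library (blue, 20% oxygen; red, 1% oxygen; circle, square and diamond for replicates 1, 2 and 3), with a line at the mean of 3 libraries and each axis starting at 0. No gene has overlapping groups, and KBTBD8 has 0 counts in hypoxia replicate 2.

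FBXO17, a receptor of the F-box subgroup that recognises glycoproteins, was the most abundant F-box gene. It had 18.7, 22.6 and 20.5 FPKM in normoxia and 78.4, 66.8 and 80.1 in hypoxia, and its normalized counts went from 1421, 1484 and 1366 to 6600, 6692 and 6300. That is a 4.59-fold rise with little spread within either group (log2 fold change 2.20, SE 0.12, adjusted p = 6.39e-06, the smallest among the 49 genes). Its relative FBXO27, of the same subgroup, went from 97.8 ± 6.02 to 322 ± 31.4 normalized counts (SD, 3 libraries each), 3.29-fold (log2 fold change 1.72, SE 0.20). The pair are neighbours on chromosome 19, FBXO17 at 38941401 to 38975910 and FBXO27 at 38990714 to 39032785 in GENCODE 29 (GRCh38), with 14.8 kb between them. In FBXO17, 22.2% of the 31-base words of the longest transcript occur in other annotated genes, mainly AC011455.2.

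FBXO32, also called atrogin-1 and known as a ligase of muscle wasting, rose 3.19-fold, from 486, 559 and 586 to 1735, 1742 and 1718 normalized counts (log2 fold change 1.67, SE 0.14, adjusted p = 3.32e-05). The hypoxia libraries were almost equal. FBXO30, which is known from muscle wasting in mice as well, went the other way, from 1071, 1524 and 1797 to 525, 267 and 517 normalized counts, and fell by 1.75 on the log2 scale (SE 0.31). FBXO45, whose protein works with the large ligase MYCBP2 rather than in a standard cullin 1 complex, fell by 1.56 (SE 0.25), and FBXO9, a receptor linked to mTOR signalling, by 1.12 (SE 0.19). FBXO46, outside the rule for named genes, rose 2.23-fold and lost its call in edgeR with median-ratio size factors (log2 fold change 0.37, adjusted p = 0.0613, range over the alternatives 2.68e-17 to 0.0613).

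In the FBXL genes, whose receptors carry leucine-rich repeats, the widest change was that of FBXL2. It had 27.4, 31.4 and 58.7 normalized counts in normoxia and 231, 166 and 181 in hypoxia, 4.92-fold higher (log2 fold change 2.29, SE 0.34, adjusted p = 0.000391). Normoxia replicate 3 stood above the other two, and without it the log2 fold change was 2.71. FBXL8 rose 3.75-fold and FBXL20, a receptor known from synapses, 2.39-fold. FBXL20 lost its call in edgeR with median-ratio size factors (log2 fold change 0.47, adjusted p = 0.0617, range over the alternatives 1.94e-11 to 0.0617). For FBXL8, 33.2% of the 31-base words occur in another annotated gene, AC074143.1. FBXL18 and FBXL6 fell by 1.55 (SE 0.32) and 1.32 (SE 0.27) on the log2 scale. FBXL6 overlaps SLC52A2 on the opposite strand over 31.7% of its exonic bases, and whether counting used strand is not given in the sources used here.

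FBXW10, the F-box gene with WD repeats, went from 203, 172 and 244 to 64.4, 53.3 and 56.2 normalized counts and fell by 1.83 on the log2 scale (SE 0.24). It lies on chromosome 17 at 18744024 to 18779349, 7.91 kb from TRIM16L at 18697998 to 18736118, and both were lower in every hypoxia library. Of the 31-base words of its longest transcript 66.6% occur in other genes, mainly CDRT1.

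The genes of the KLHL family encode receptors with a BTB domain and kelch repeats. KLHL24, whose protein controls keratin turnover in skin, rose 3.40-fold, from 435, 554 and 775 to 2107, 1530 and 2369 normalized counts (log2 fold change 1.77, SE 0.26, adjusted p = 0.000348). KLHL3, which directs degradation of WNK kinases in the kidney, rose 2.75-fold, from 127, 171 and 125 to 368, 308 and 489 (log2 fold change 1.46, SE 0.25). In both genes hypoxia replicate 2 was the lowest of its group and lay above all normoxia libraries.

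KLHL23 and KLHL18 led the falls. KLHL23 had 114, 232 and 264 normalized counts in normoxia and 58.3, 21.3 and 41.1 in hypoxia and fell by 2.32 on the log2 scale (SE 0.45, adjusted p = 0.00134). KLHL18, a cullin 3 receptor linked to Aurora A at entry into mitosis, went from 1146, 1148 and 1375 to 359, 286 and 319 and fell by 1.93 (SE 0.17, adjusted p = 3.6e-05). The first gene was scattered within both groups and the second was not, which the standard errors reflect. KLHL42, a receptor for the microtubule-severing enzyme katanin, fell by 1.37 (SE 0.21). The remaining members, KLHL8 and KLHL25, which lie outside the rule for named genes, fell by 1.17 and 1.06.

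KBTBD8, a cullin 3 receptor that acts in neural crest specification, fell the most of all family genes. Its normalized counts were 95.5, 106 and 145 in normoxia and 18.1, 0 and 7.02 in hypoxia (log2 fold change -3.72, SE 0.70, adjusted p = 0.00115). The hypoxia level rests on 18, 0 and 7 reads, so the size of the fall is loosely fixed: it was -4.91 without hypoxia replicate 1 and -3.19 without hypoxia replicate 2. KBTBD6, which targets the Rac activator TIAM1, went from 148, 133 and 156 to 46.3, 23.7 and 48.1 normalized counts and fell by 1.88 (SE 0.31). KBTBD3 rose 2.90-fold from a low level, 35.9, 44.1 and 47.8 normalized counts, to 132, 129 and 109.

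Among the KCTD genes KCTD11, a suppressor of Hedgehog signalling that works with cullin 3, rose 6.51-fold. It had 277, 352 and 307 normalized counts in normoxia and 1956, 2176 and 1958 in hypoxia (log2 fold change 2.70, SE 0.16, adjusted p = 7.65e-06). KCTD6, a relative with the same described role in Hedgehog signalling, moved the opposite way, from 277, 237 and 273 to 157, 139 and 63.2, and fell by 1.13 (SE 0.34, adjusted p = 0.0106, the largest among the 49 genes). KCTD15 and KCTD1, close paralogs that repress the transcription factor AP-2, both fell, by 1.29 (SE 0.13) and 1.26 (SE 0.20). They are not established as ligase receptors.

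KCTD7, linked to a progressive myoclonic epilepsy, rose 2.44-fold, and KCTD9 rose 2.07-fold. KCTD7 lost its call in edgeR with median-ratio size factors (log2 fold change 0.49, adjusted p = 0.104, range over the alternatives 2.35e-06 to 0.104). KCTD9 had 779, 1266 and 1271 normalized counts in normoxia and 2405, 1710 and 2734 in hypoxia (log2 fold change 1.05, SE 0.25, adjusted p = 0.00385). It was the 1 family gene whose groups overlapped in FPKM, where hypoxia replicate 2 at 11.2 fell below normoxia replicates 2 and 3 at 11.3 and 12.0, and it lost its call under other library scales (adjusted p = 0.0841 with TMM, range over all alternatives 0.000187 to 0.378). Groups did not overlap for 49 of 49 family genes in normalized counts (99.6% of all entries) and for 48 of 49 in FPKM (96.4% of all entries). ASB13, the single ASB gene, went from 1004, 867 and 847 to 367, 328 and 334 normalized counts and fell by 1.40 (SE 0.15, adjusted p = 9.4e-05).

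**Figure D3:**
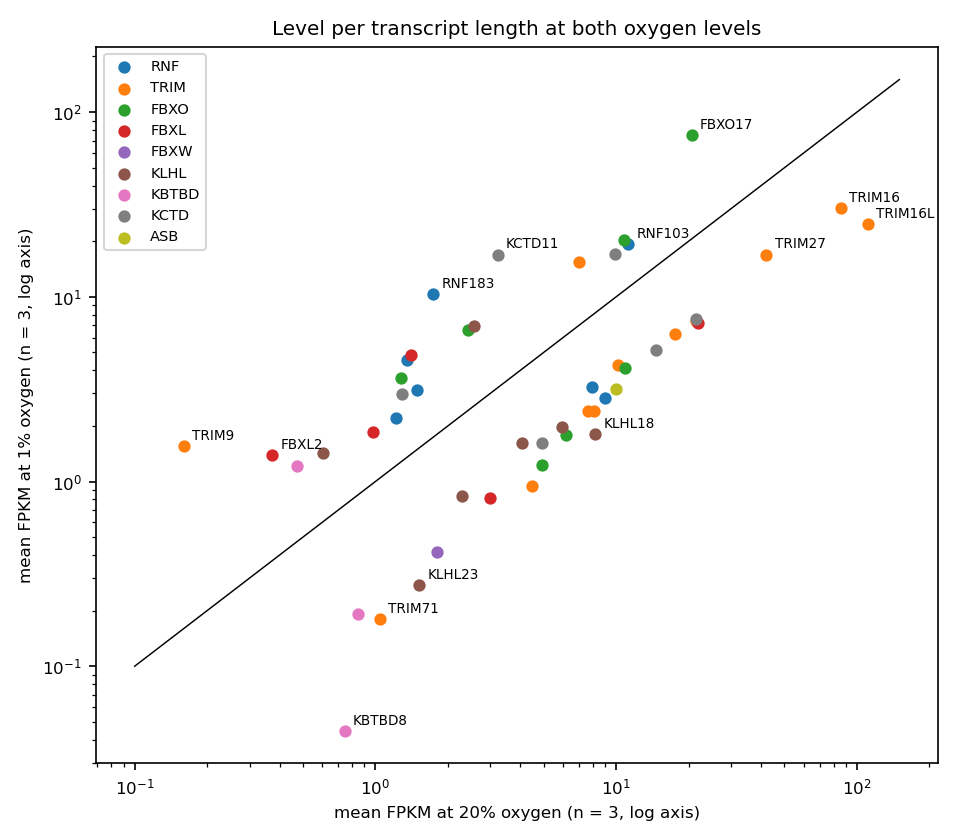
Mean FPKM of each ligase family gene at 20% oxygen (horizontal, log axis) against 1% oxygen (vertical, log axis), n = 3 libraries each, coloured by symbol family, with a line of equal level. TRIM16 and TRIM16L lead at 20% oxygen and FBXO17 at 1% oxygen, where its libraries reach 66.8 to 80.1 FPKM, and TRIM9 and FBXL2 rise from levels under 1 FPKM.

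By level per length, the order over the 6 libraries was headed by TRIM16L (mean 67.9 FPKM), TRIM16 (57.8), FBXO17 (47.8) and TRIM27 (29.5), followed by FBXO46 at 15.5. The order at the top changed with oxygen. In every normoxia library TRIM16L, TRIM16 and TRIM27 exceeded FBXO17, and in every hypoxia library FBXO17 exceeded all 3. Summed over all 49 genes, FPKM was 499, 534 and 555 in normoxia and 381, 317 and 376 in hypoxia for replicates 1 to 3. Much of this difference lies in TRIM16L (mean 111 to 24.7 FPKM) and TRIM16 (85.6 to 30.1), so it does not describe the 49 genes as a set. With the library totals implied by count and FPKM, log2 fold changes of family genes moved by a median of -0.27.

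The deposited table gives each family gene at most 1 Pfam label, so a domain that the label leaves out is not counted below. A SPRY or SPRY-associated domain, a substrate-binding fold, was given for 10 family genes, of which 2 rose and 8 fell, and for 4 other entries, of which 3 rose and 1 fell. A label naming kelch was given for 9 family genes, 3 higher and 6 lower, and a label naming F-box for 8, 4 higher and 4 lower. The F-box count holds FBXO17 and FBXO27, both higher, whose label is the F-box associated region and not the F-box itself. A BTB label was given for 8 family genes, 3 higher and 5 lower, and for 9 other entries, 6 higher and 3 lower. KBTBD3 and KBTBD8, whose label names both BTB and kelch, are in both counts. The KLHL genes, labelled by kelch alone, are not in the BTB count. The 8 family genes with a label naming RING, the RNF genes and TRIM31, counted 5 higher and 3 lower, and the 8 other entries with it 3 higher and 5 lower. For RNF144A and RNF217, both higher, that label is the in-between RING domain and not the RING finger itself. Most TRIM genes carry another label, and over all RNF and TRIM genes 7 were higher and 12 lower. These are small counts, and no label was tested.

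Library differences within the groups touched these genes. In FPKM, normoxia replicate 1 was the lowest normoxia library for 34 of 49 family genes (51.0% of all entries) and hypoxia replicate 2 the lowest hypoxia library for 35 (54.8% of all entries). On normalized counts, hypoxia replicate 2 was lowest for 27 (39.8% of all entries), and it lay more than 0.5 on the log2 scale below the mean of the other two hypoxia libraries for 18. Those 18 genes had a median GC content of 43.1%, and the other 31 a median of 52.6%. Across the 49 genes the deviation of hypoxia replicate 2 had a Pearson r of 0.45 and a Spearman rho of 0.47 with GC content, and across 2485 entries 0.57 and 0.60; the points share the same libraries and are not independent. All 49 family genes passed the edgeR test in the same direction without hypoxia replicate 2 and also without normoxia replicate 1. Over all entries 1518 were called higher and 1157 lower in both runs, the same counts as with all 6 libraries, so this describes the list. The family genes that rose had a median GC content of 48.7% and those that fell 47.8%. The log2 fold change had a Pearson r of 0.15 and a Spearman rho of 0.12 with GC content across the 49 genes, and 0.26 and 0.25 across the 2485 entries.

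**Figure D4:**
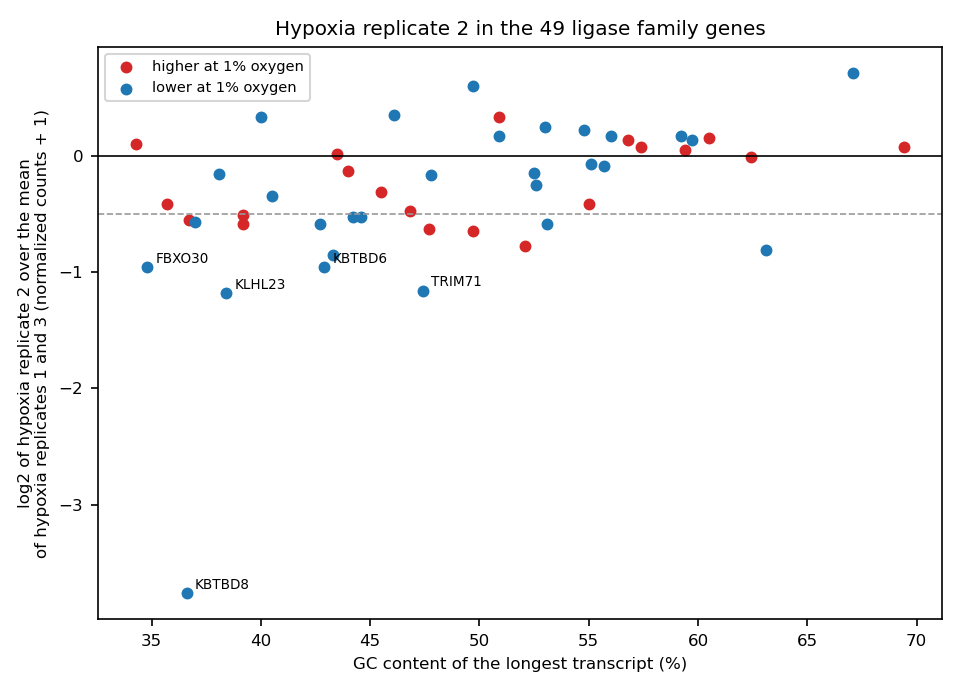
Log2 of hypoxia replicate 2 over the mean of hypoxia replicates 1 and 3 (normalized counts plus 1) against the GC content of the longest transcript in percent, for the 49 ligase family genes, coloured by direction; the dashed line marks -0.5. The 18 genes below the line have a median GC content of 43.1%, and KBTBD8, at 0 counts in that library, lies lowest.

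Promoter sequences from RefSeq (GRCh38.p14, 250 bases before to 50 bases after the gene start) were matched by symbol for 37 of the 49 genes. They were searched on both strands for ACGTG and GCGTG, the core that hypoxia-inducible factors bind, which reads CACGT or CACGC on the other strand, so that CACGTG counts on both. The motif stood in the promoters of 11 of 16 genes that rose (68.8%) and 10 of 21 that fell (47.6%). Among other entries it stood in 57.4% of those that rose and 70.3% of those that fell, and it stood in 54.7% of the promoters of protein-coding genes and 48.4% of all in the table. A motif this short is common, and a match is a description of the sequence. Promoters of the 3 largest rises and of 3 large falls, among genes with a sequence used here, are printed to show where the motif, in capitals, lies or is missing.
TRIM9, chr14:51095056-51095355, minus strand: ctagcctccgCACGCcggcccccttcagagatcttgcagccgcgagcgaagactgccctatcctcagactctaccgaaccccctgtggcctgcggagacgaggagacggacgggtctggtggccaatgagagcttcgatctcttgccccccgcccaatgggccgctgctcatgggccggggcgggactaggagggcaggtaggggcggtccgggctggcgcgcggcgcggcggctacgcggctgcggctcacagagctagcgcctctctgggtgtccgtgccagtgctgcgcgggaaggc
RNF183, chr9:113303327-113303626, minus strand: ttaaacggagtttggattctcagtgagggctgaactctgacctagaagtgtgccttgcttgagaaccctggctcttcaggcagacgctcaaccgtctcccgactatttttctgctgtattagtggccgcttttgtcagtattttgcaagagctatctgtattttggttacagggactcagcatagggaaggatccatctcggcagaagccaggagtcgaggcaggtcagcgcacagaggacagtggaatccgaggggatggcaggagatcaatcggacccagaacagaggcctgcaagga
KCTD11, chr17:7351912-7352211, plus strand: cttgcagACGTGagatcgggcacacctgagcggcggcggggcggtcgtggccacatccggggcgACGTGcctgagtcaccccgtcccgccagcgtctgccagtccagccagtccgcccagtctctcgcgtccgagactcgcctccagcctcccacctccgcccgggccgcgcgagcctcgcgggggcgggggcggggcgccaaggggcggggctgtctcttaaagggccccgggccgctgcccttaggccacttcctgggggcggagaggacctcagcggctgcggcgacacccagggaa
TRIM71, chr3:32817747-32818046, plus strand: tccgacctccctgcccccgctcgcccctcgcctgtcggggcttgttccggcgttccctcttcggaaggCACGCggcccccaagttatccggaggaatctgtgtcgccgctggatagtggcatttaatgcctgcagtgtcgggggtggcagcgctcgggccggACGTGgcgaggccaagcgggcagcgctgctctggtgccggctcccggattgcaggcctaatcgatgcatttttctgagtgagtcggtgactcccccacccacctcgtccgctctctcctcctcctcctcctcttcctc
KLHL18, chr3:47282694-47282993, plus strand: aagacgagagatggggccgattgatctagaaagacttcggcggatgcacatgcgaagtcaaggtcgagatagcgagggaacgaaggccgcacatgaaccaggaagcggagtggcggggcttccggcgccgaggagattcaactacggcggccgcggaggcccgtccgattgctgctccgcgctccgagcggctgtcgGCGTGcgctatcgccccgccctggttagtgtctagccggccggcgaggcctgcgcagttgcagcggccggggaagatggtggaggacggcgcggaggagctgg
KBTBD6, chr13:41132753-41133052, minus strand: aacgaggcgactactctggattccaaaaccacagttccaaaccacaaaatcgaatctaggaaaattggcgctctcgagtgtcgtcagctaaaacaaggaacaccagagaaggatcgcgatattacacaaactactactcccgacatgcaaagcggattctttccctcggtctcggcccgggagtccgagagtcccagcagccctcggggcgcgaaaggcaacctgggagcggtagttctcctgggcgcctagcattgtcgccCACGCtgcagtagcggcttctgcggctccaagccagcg
KCTD11 holds the motif at positions -243 and -186 from its RefSeq start, TRIM9 at -240, and RNF183, which rose 7.09-fold, holds no match in this window. Of the genes that fell, TRIM71 holds it at -182 and -88, KLHL18 at -53 and KBTBD6 at 13.

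The rest of the ubiquitin pathway was read from 7 lists of 244 genes, of which 34 had an entry, 15 higher and 19 lower, where 56.7% of all entries were called higher and 43.3% lower. With median-ratio size factors 8 of them were called higher and 19 lower. Of 11 cullins and their RING partners, CUL7 had an entry and rose from a mean of 967 (SD 86.5) to one of 2900 (SD 241) normalized counts over 3 libraries each (log2 fold change 1.58, SE 0.14). The scaffolds CUL1, CUL2, CUL3 and CUL5, on which the receptors above are mounted, had none. All 4 entries among 24 genes of neddylation and the COP9 signalosome, the systems that switch cullin ligases on and off, fell: the conjugating enzyme UBE2F by 1.36, DCUN1D5 by 1.23, the activating subunit NAE1 by 1.05 and COPS3 by 1.04 on the log2 scale. Their summed FPKM went from between 153 and 175 to between 51.1 and 69.3.

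Of 34 cullin adaptors and receptors outside the families above, 9 had an entry, 4 higher and 5 lower. SOCS3, a cytokine feedback inhibitor, SPSB3 and WSB1 had log2 fold changes of 2.17, 1.63 and 1.61, and LRR1, the Cockayne syndrome gene ERCC8 and SOCS4 fell by 1.63, 1.58 and 1.32. Of 29 F-box, TRIM and BTB genes under another symbol, 5 had an entry, 3 higher and 2 lower, among them the cell cycle receptor SKP2, which fell by 1.08, RHOBTB2, which fell by 1.35, and LMO7 and BTBD9, with log2 fold changes of 1.23 and 1.02.

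Ligases outside the 9 families also went both ways. Of 82 RING and U-box ligases, 12 had an entry, 6 higher and 6 lower. CBLB, which restrains receptor signalling, RBCK1, a subunit of the linear ubiquitin ligase, and SIAH1, a ligase that targets oxygen-sensing prolyl hydroxylases, had log2 fold changes of 2.06 (SE 0.18), 2.01 (SE 0.22) and 1.42 (SE 0.19). UHRF1, which maintains DNA methylation, RFWD3 and SH3RF2 fell by 1.67 (SE 0.20), 1.33 (SE 0.17) and 1.33 (SE 0.17). Of 35 E1 and E2 genes 2 had an entry, UBA7 with a log2 fold change of 1.15 and UBE2G2, which fell by 1.02, and of 29 HECT ligases 1, HECW1, which fell by 1.23.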

How the data were processed

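Hep3B libraries from 20% oxygen (n = 3) and 1% oxygen (n = 3) were compared. TRIzol extraction and a SMARTER mRNA-seq kit are recorded per the labels' protocols. Which aligner, counter, annotation and build the authors used, and whether strand was counted, is not given in the sources used here. Read counts were deposited by the authors in columns headed Count, which do not mention normalization, and were taken as not normalized. The authors also deposited FPKM values, a log2 fold change and an adjusted p-value (FDR) for each entry. Columns were matched to titles by oxygen level and number. Nothing says that replicates were separate cultures, so p-values measure the spread between these libraries, which may be technical.

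The libraries held between 5474597 and 10134230 counts over the listed entries, which is not their depth. Library scales (0.844 to 1.11) were recovered with scipy 1.17.1 from the deposited log2 fold changes over the 1442 entries above 200 counts in all 6 libraries (median absolute residual 0.000202), because scaling by TMM assumes mostly unchanged genes. They are the authors' scale and no check of it. Left out were 6 entries whose deposited fold change lay more than 1 from their counts. edgeR 4.0.16 (R 4.3.3) fitted 2675 entries without a filter, with the quasi-likelihood test and Benjamini-Hochberg adjustment at 0.05; SE was taken as the size of the log2 fold change divided by the root of its F statistic. The script was tested on simulated data. limma 3.58.1 and DESeq2 1.42.0 served as alternatives.

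Named genes are, per family, up to 3 rises and 3 falls by size, all genes of families with 5 or fewer, the 3 highest in FPKM, any gene at 0 counts throughout a group (none), and up to 3 per direction in each pathway list. Members and lists were chosen with earlier results of these data known. Positions, GC content and overlaps are from GENCODE 29 (GRCh38), joined by Ensembl ID. List genes were matched by Ensembl ID, since 1 symbol is stored as a date. Some single entries are not reported here.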

Additional observations from a re-analysis of the deposited data

How the results depend on the processing

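Direction was the same for each of the 49 family genes under every alternative run. Each gene had been listed with a log2 fold change of at least 1.00 in size on these same 6 libraries. The largest median shift among the alternatives was -0.78, so a kept direction describes the list and does not support it. The count of 49 calls, with 20 higher and 29 lower, was unchanged with DESeq2, with a filter at a mean of 10 counts, with limma on log2(FPKM + 0.1) or log2(FPKM + 1), with library totals implied by count and FPKM, with all entries kept (chosen after seeing the data) and without any single library. Over all entries 1518 were called higher and 1157 lower with DESeq2, with the filter and with all entries kept. With library totals these were 1510 and 1157, and with limma 1474 and 1156 or 1478 and 1156. Without any single library between 1508 and 1518 were called higher and between 1154 and 1157 lower. The median log2 fold change of all entries moved by -0.53 with TMM, with library totals by -0.27 and median-ratio size factors by -0.78. With TMM 19 genes stayed higher, against 1348 of all entries, and KCTD9 lost its call. Median-ratio size factors left 13 family genes higher and 8 pathway list genes higher, against 15 in the report, 13 with TMM and 14 with limma on either FPKM scale, because these factors assume that listed entries are mostly unchanged; besides KCTD9, the genes that lost their call were FBXL20, FBXO46, KCTD7, RNF103, RNF122 and RNF217. With the replicate block 49 genes were called, 20 higher and 29 lower (1518 and 1157 over all entries), and 15 and 19 pathway genes. The numbers are not taken as pairs: same-numbered libraries had correlations of -0.354, -0.123 and 0.434 in their deviations from the group means.

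Depth limits KBTBD8 most, and family genes without an entry are not analysed here.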

Other observations

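The KEGG label for ubiquitin mediated proteolysis in the deposited table covers 32 of the entries tested, 19 higher and 13 lower at 1% oxygen, and 2 of these are family genes, RNF157 and TRIM37. The family genes and the KEGG pathway hold largely different entries.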
